A study of Mus musculus with 2 samples.

Results

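Eosinophils are granulocytes that ripen in bone marrow and carry large granules filled with cationic proteins. The genes described here are 10 eosinophil genes out of 30165 named genes on the array, chosen by symbol or known synonym. They comprise 7 granule protein genes (Prg2, Prg3, Epx, Ear1, Ear2, Ear6 and Ear10), 2 surface receptors (Il5ra and Siglecf) and 1 lipid enzyme, Alox15, which is neither a granule protein nor a receptor. All 10 had a probe, with 2 probes for Siglecf (named Siglec5 on the array) and 1 for each of the others. All 11 probes were matched to their genes by RefSeq accession, and each was printed as 1 spot.

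Bone marrow mononuclear cells of C57/Bl6J mice aged 2 to 4 months were flushed from femurs, cultured, and collected at day 11. The control culture was untreated (a negative control), and the other was given ninjin'yoeito (NYT), a herbal drug of several plants used in Japanese medicine. RNA of each culture was hybridised to 1 one-colour whole-genome mouse array, so there was no replicate and no p-value could be given. The sources used here do not state the dose, whether animals were pooled, or which cytokines the medium held. Ptprc, the pan-leukocyte antigen CD45, had intensities of 9495 (control) and 2429 (NYT), well above background on both arrays.

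Intensities are the scanner software's processed spot signals in arbitrary units. Differences are log2 intensity of NYT minus control, after the 75th percentile of each array was subtracted. That percentile was 1475 for control and 728 for NYT, so scaling adds 1.02 to each log2 difference, and any scaled difference between 0 and 1.02 was negative before it. Of the 39429 probes, 62.2% (control) and 57.7% (NYT) were well above background. Among 16996 genes measured on both arrays, 11.0% were at least 2-fold lower and 11.2% at least 2-fold higher on the NYT array. That split of 1868 lower against 1904 higher became 6190 against 211 without scaling, 7485 against 166 when scaled to spike-in RNA, and 2377 against 935 after loess. The measured genes as a whole had a median difference of 0.29, or -0.73 without scaling. Ptprc stood at -0.95 as scaled, and the other leukocyte genes read, Coro1a, Itgb2 and Spi1, at -1.15, -0.83 and 0.20. Errors given as ± are the scanner software's own error estimate for a spot, carried to the difference (n = 1 spot per array). They cover neither cultures nor hybridisations, and were nearly constant for bright spots. The median SD between spots of probes printed several times was smaller, at 0.054 for a log2 difference.

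Interleukin 5, acting through a receptor made of the alpha chain Il5ra and a shared beta chain, drives eosinophils to grow and survive. Their granules hold major basic protein, eosinophil peroxidase and RNases of the Ear family, which damage parasites and host tissue when released. Eosinophil fate in the marrow depends on the transcription factor Gata1.

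The eosinophil granule genes were far lower on the NYT array, whereas the interleukin 5 receptor chain was not. Of the 9 members measured on both arrays, 8 were lower by 2-fold or more and none was at least 2-fold higher, against 11.0% lower among all measured genes. All 8 were also at least 8-fold lower, a size reached by 2.79% of all measured genes, and 5 were at least 16-fold lower, reached by 1.23%. The median of the 9 was -4.48, with a range from -5.11 for Epx to 0.90 for Il5ra. The remaining member, Alox15, was well above background on the control array alone. In RNA from a mixed culture, fewer eosinophils and less of these transcripts per eosinophil cannot be told apart.

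**Figure D1:**
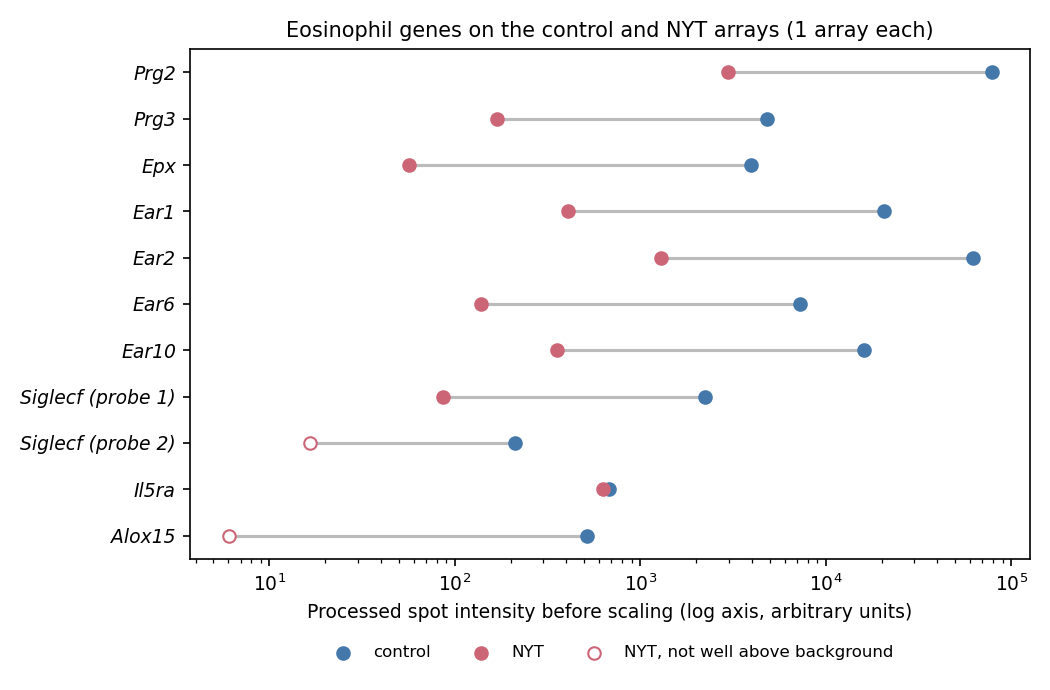
Processed spot intensity of each eosinophil gene before scaling (log axis, arbitrary units), with 1 array per group. Blue points are the control array and red points the NYT array, open where the probe was not well above background; the points of Il5ra (682 and 627) nearly coincide, while those of Epx lie at 3955 and 56.7.

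Prg2 encodes major basic protein, which forms the crystal core of the granule. Its probe (chr2:84822799-84822858, plus strand, build mm9) had intensities of 78455 (control) and 2959 (NYT). After scaling, Prg2 was 13.1-fold lower (log2 difference -3.71 ± 0.20). Prg3, which encodes a second, related major basic protein, had intensities of 4840 and 169 in the same order. It was 14.1-fold lower (-3.82 ± 0.21). Its gap to Prg2 was smaller than the scanner error of either value, but larger than the SD of 0.054 between repeated spots of the same probe. The direction of the gap depended on the processing. Prg2 was the lower of the pair after quantile normalization (-4.02 against -3.80), loess (-4.12 against -4.03) and normexp background correction (-3.67 against -3.41). The genes are neighbours on chromosome 2. Because they are related genes, their probes are shown for how far they differ:
Prg2: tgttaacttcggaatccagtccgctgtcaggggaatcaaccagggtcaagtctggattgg
Prg3: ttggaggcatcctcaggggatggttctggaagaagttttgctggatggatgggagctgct
The longest run common to both probes was 8 bases, and neither shared 20 bases in a row with any other probe on the array. The probe of Prg3 lies on the plus strand between 84831668 and 84833177 of chromosome 2 (mm9), a stretch longer than its 60 bases, so it crosses an intron.

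Epx encodes eosinophil peroxidase, a haem enzyme that makes hypobromous acid from bromide and hydrogen peroxide. Its intensity was 3955 for control and 56.7 for NYT, still well above background. Epx was 34.4-fold lower after scaling (-5.11 ± 0.23) and ranked 48 from the lowest of 16996 measured genes. Its probe lies at chr11:87678288-87678347 on the minus strand (mm9). The related neutrophil peroxidase gene Mpo, close by on the same chromosome, stood at -3.07, or -3.51 by its other probe. Lpo, another peroxidase gene of that cluster, stood at 0.47 from a dim signal of 78.5 and 53.6. Epx was the lowest of these neighbouring peroxidase genes, with a difference from the brighter Mpo probe of -2.04. The gap was smaller with normexp background correction, where Epx stood at -4.04 and Mpo at -3.06.

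The Ear genes encode eosinophil-associated RNases, small secreted enzymes of the RNase A superfamily that multiplied in rodents. Ear1 had intensities of 20616 (control) and 410 (NYT), and was 24.8-fold lower (-4.63 ± 0.20). Ear2, which patrolling monocytes are also known to express, had 62224 and 1289, and was 23.8-fold lower (-4.57 ± 0.20). Ear6 had 7249 and 138, and was 25.9-fold lower (-4.69 ± 0.21). Ear10 had 16148 and 358, and was 22.3-fold lower (-4.48 ± 0.20). The 4 differences spanned 0.22 on the log2 scale, about the scanner error of a single one but more than the SD of 0.054 between repeated spots. With normexp background correction they spread wider, from -4.62 for Ear2 to -4.12 for Ear6. The order of the Ear members thus changed with the background correction. It also changed with the scaling, as Ear2 was the lowest after quantile normalization (-4.84) and loess (-4.94).

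The Ear genes are near-identical copies on chromosome 14, so a probe for 1 may catch transcripts of another, and their separate values are uncertain. The probes are shown because they set how far the values can be separated. The runs in capitals are those that Ear1 shares with Ear7 and Ear12, that Ear10 shares with Ear12, and that Ear4 shares with Ear12:
Ear1: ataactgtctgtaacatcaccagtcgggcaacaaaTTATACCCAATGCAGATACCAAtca
Ear7: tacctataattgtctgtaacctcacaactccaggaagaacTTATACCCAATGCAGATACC
Ear12: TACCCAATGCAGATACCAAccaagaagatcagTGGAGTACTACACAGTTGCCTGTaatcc
Ear10: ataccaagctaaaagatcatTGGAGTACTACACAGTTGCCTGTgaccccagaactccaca
Ear4: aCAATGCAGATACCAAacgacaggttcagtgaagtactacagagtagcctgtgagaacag
Ear1 and Ear7 shared a run of 20 bases, Ear1 and Ear12 a run of 19, and Ear10 and Ear12 a run of 23. The probes of Ear2 and Ear6 shared the 23 bases GCTGAATAGATCTTTTCTAATTA and were identical at 40 of 45 aligned positions. The probes of Ear1 and Ear10 shared no run longer than 7 bases, and each shared at most 5 with Ear2 or Ear6. They lie at different places in their transcripts, and whether a probe matches the transcript of another Ear gene was not tested.

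Other RNase A family genes were lower in part. Of 14 with a probe, 9 were measured, of which 5 were at least 2-fold lower and none at least 2-fold higher, with a median of -1.02. Ear7 (-4.92), Rnase2a, named Ear11 on the array (-4.52), and Ear12 (-4.52) lay beside the Ear members. The probe of Rnase2a shared no run over 7 bases with the probes of the Ear genes compared. Rnase6, an RNase of monocytes and other leukocytes, stood at -2.27, and Rnase4 at -1.02. Rnase12 was detected on the control array alone and was at least 17.9-fold lower. Rnase1 was detected on the NYT array alone, from dim signals of 23.9 (control) and 28.3 (NYT), with a bound of at least 2.20-fold higher as scaled. The angiogenins Ang, Ang2 and Ang4, of the same superfamily, stood at -0.92, -0.94 and -0.27. The probes for Ear4 and for Rnase2b (Ear5 on the array) were well above background on neither array. The run of 15 bases that the Ear4 probe shares with those of Ear1 and Ear12 does not show whether it matches their transcripts.

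The DNA upstream of the members was compared in RefSeq windows of build GRCm38.p6, taking the 250 bases before each start. Of the 10 members, 8 matched an entry, and Prg2 and Alox15 had none. Among the 4 Ear members the upstream sequences were 77.3% to 97.6% identical in global alignment, against 43.8% to 48.9% for the other 22 pairs of members. A run of 57 bases, in capitals below, was common to all 4 and was found in none of the other windows among 32851. Over the whole window Ear1, Ear2 and Ear10 were 90.6% to 97.6% identical to each other, and Ear6 was 77.3% to 79.6% identical to them. Ear1 and Ear6, on the minus and plus strands of chromosome 14, are shown as a less alike pair (78.2%), with identical bases also outside the run:
Ear1, chr14:43819640-43819889, minus strand: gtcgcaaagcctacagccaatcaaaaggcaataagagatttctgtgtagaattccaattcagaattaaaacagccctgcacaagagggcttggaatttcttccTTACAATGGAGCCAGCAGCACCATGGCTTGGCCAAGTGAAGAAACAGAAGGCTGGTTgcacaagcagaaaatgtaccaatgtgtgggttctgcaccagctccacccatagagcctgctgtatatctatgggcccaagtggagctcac
Ear6, chr14:51853518-51853767, plus strand: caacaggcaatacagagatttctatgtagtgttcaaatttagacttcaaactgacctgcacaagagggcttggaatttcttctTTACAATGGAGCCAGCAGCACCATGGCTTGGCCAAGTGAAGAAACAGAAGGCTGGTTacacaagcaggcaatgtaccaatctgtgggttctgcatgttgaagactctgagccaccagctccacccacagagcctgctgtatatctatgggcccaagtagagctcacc
The run ended 91 bases before the start of Ear1 and 111 bases before that of Ear6. The 4 Ear members thus share most of their upstream sequence, and the run is its longest stretch identical in all 4.

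Letters known from binding sites of eosinophil transcription factors were searched on both strands of the same 250 bases. GATAA, the core of a GATA factor site, was found upstream of 2 of 8 members, Prg3 and Il5ra, and in 22.6% of all windows. The longer AGATAA, which contains it, was found for Il5ra alone and in 9.99% of windows. TTGCGCAA, a C/EBP palindrome, was found for none (0.164% of windows). GAGGAA, an ETS factor core that Spi1 also reads, was found for Siglecf alone (23.25% of windows), and GAGGAAGT, which contains it, for none (2.44%). Prg3 and Il5ra are shown with each GATAA, or its reverse TTATC, in capitals, since they are the members with the letters:
Prg3, chr2:84987965-84988214, plus strand: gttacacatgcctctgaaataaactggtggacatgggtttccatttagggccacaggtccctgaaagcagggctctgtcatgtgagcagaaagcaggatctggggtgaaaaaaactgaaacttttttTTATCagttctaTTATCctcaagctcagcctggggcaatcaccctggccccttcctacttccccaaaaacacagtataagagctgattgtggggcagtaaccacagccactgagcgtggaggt
Il5ra, chr6:106749038-106749287, minus strand: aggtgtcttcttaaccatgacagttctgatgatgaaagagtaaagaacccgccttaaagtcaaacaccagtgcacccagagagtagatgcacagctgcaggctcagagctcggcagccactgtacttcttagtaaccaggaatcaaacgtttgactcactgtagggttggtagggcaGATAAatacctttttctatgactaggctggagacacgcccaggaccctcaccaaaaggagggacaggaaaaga
In Prg3 the matches began 123 and 111 bases before the start, and in Il5ra 73 bases before it. A match in these windows is a description of letters and not of a bound site.

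**Figure D2:**
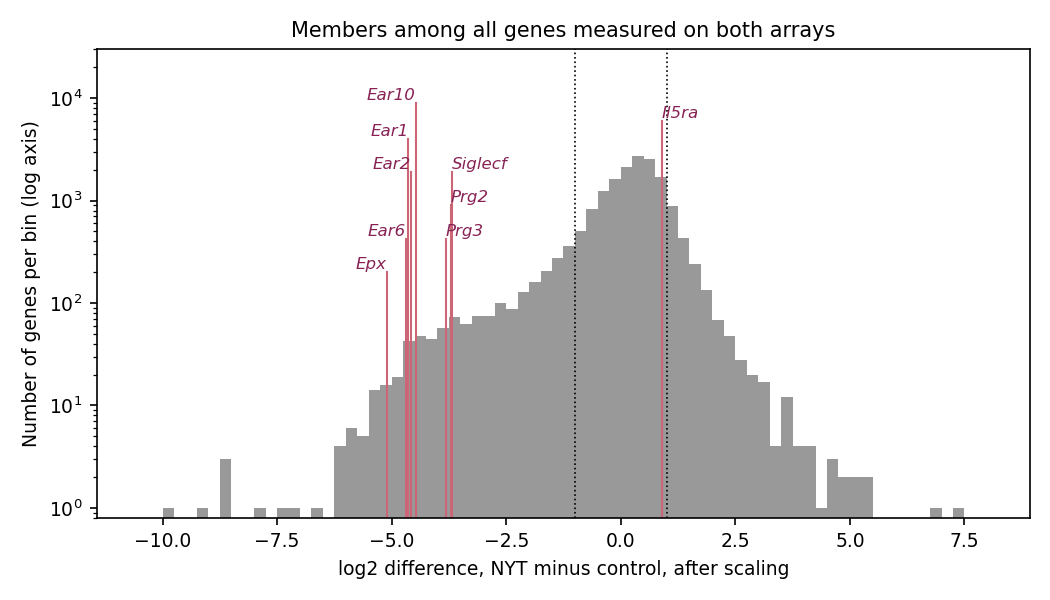
Histogram of log2 differences (NYT minus control, after scaling) of 16996 measured genes, with a log vertical axis of genes per bin and red lines, of no meaning in height, at the 9 measured eosinophil genes. The dotted lines mark 2-fold; 8 members lie between -5.11 and -3.68, in the sparse lower tail, and Il5ra lies at 0.90 inside the main peak.

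Among the surface receptors, Siglecf and Il5ra differed in what they showed. Siglecf is an inhibitory sialic acid receptor that marks mouse eosinophils and also macrophages of the lung. Its brighter probe (chr7:50614768-50614827, plus strand, mm9) had intensities of 2225 (control) and 85.9 (NYT), a 12.8-fold lower value (-3.68 ± 0.22). Its second probe, nearer the transcript's 5′ end, had 211 and 16.6, the latter not well above background. Both probes were thus lower on the NYT array.

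Il5ra, the chain that gives the interleukin 5 receptor its specificity, had intensities of 682 (control) and 627 (NYT). These are nearly equal before scaling, and scaling turned them into a log2 difference of 0.90 ± 0.20. The value was under 2-fold, and 85.5% of measured genes lay at or below it. Its sign depended on the scaling, at -0.12 without scaling and -0.28 when scaled to spike-in RNA. It exceeded the median of all measured genes by 0.61 as scaled. Il5ra was measured by 1 probe (chr6:106660378-106660437, minus strand, mm9), which begins at base 3488 of its transcript, so other transcript forms of the gene were not separated.

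The shared receptor chains and the cytokines of the eosinophil line were read from a list of 23 genes. Of 15 measured on both arrays, 7 were at least 2-fold lower and none at least 2-fold higher, with a median of -0.85. Csf2rb, the beta chain that pairs with Il5ra, stood at 0.44, and Csf2rb2, a near-identical copy, at 0.39, with intensities of 60222 (control) and 40349 (NYT) for the former. Without scaling they stood at -0.58 and -0.62. Il3ra and Csf2ra, the alpha chains for interleukin 3 and GM-CSF, stood at 0.32 and 0.05. The receptor chains for the growth factors of eosinophils were therefore all under 2-fold as scaled.

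Receptors for other signals were in part lower and in part under 2-fold. Ccr3, the eotaxin receptor that guides eosinophils into tissue, had intensities of 1321 (control) and 47.6 (NYT) and was 13.7-fold lower (-3.78, or -2.57 with normexp background correction). Il1rl1, the receptor for the cytokine Il33 on eosinophils, mast cells and basophils, stood at -4.69. Cysltr2, a receptor for cysteinyl leukotrienes, stood at -2.91, and Cysltr1 at -0.85. Crlf2, a chain of the receptor for Tslp, stood at -0.14, the histamine receptor Hrh4 at -0.11 and Il13ra1, a receptor chain for Il13, at 0.00080. Il4ra, the receptor chain for Il4, stood at -1.99 by its brighter probe and 0.15 by its other probe, and the chemokine receptor Ccr1 at -1.82. Of the ligands, Il5 itself was well above background on neither array, as were Il33, Tslp and the eotaxin Ccl11. Il4 stood at -2.23 and Ccl24, another eotaxin, at -2.12. With normexp background correction Il4 stood at -1.25 and Ccl24 at -0.61, under 2-fold. Csf2 and Il13 were detected on the control array alone, at least 6.41-fold and 4.25-fold lower.

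Transcription factors of the eosinophil line ranged from far lower to slightly higher. Of 15 genes listed, 8 were at least 2-fold lower, 1 at least 2-fold higher and 6 under 2-fold, with a median of -1.11. The list, and the 8, include Trib1, which is not itself a transcription factor. Gata2 (-5.18) and Gata1 (-3.86), GATA factors of eosinophils, basophils, mast cells and the red cell and platelet lines, were the lowest of the list. Cebpe, which acts in granule maturation of neutrophils and eosinophils, came next at -3.26. Trib1, a pseudokinase that lowers C/EBP protein levels, stood at -2.81, with its probes ranging up to -1.10. Cebpa (0.19), Cebpb (0.44), Spi1 (0.20) and Xbp1 (0.11), which also serve macrophages or secretory cells, were all under 2-fold as scaled, as were Irf8 (-0.14) and Runx1 (-0.57). Myb (-2.36), Zfpm1, a partner of Gata1 (-1.99), and Ikzf1 (-1.11) were also at least 2-fold lower. The probes of Ikzf1 ranged from -1.95 to -0.27, so its call rests on the brightest probe. Of the related inhibitors of helix-loop-helix factors, Id1 stood at -2.46 and Id2 at 1.16, though Id2 stood at 0.14 without scaling.

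Alox15, the 12/15-lipoxygenase that oxidises arachidonic acid and is found in eosinophils and in peritoneal macrophages, had intensities of 515 (control) and 6.03 (NYT). The latter was not well above background, so the value is a bound, at least 13.3-fold lower with NYT. The bound sets the control signal against the lowest signal well above background on the NYT array, which was 19.2 before scaling. With normexp background correction the bound was at least 3.80-fold. Of 18868 genes detected on the control array, 9.83% were not detected on the NYT array. Of those 1855 genes, 39.4% had a bound of at least 2-fold.

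Related lipid enzymes were lower in part. Of 10 other lipoxygenase and eicosanoid genes measured, 4 were at least 2-fold lower and none at least 2-fold higher, with a median of -0.81. Alox12, the platelet 12-lipoxygenase, stood at -4.38 and its other probe at -4.25. Alox5, which starts leukotriene synthesis, stood at -3.49, and the cyclooxygenases Ptgs1 and Ptgs2 at -3.60 and -3.57. Ltc4s, which makes leukotriene C4 in eosinophils and mast cells, stood at 0.95 (-0.07 without scaling and -0.23 with spike-in scaling), and Alox12e, beside Alox15 on the chromosome, at 0.28. Aloxe3 was detected on the control array alone, at least 2.89-fold lower.

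Other Siglec genes did not share the size of the Siglecf difference. Of 7 measured, 2 were at least 2-fold lower and none higher by that size, with a median of -0.72. Siglec1, a macrophage adhesion receptor, stood at -2.69 by its brighter probe and 1.28 by its other probe. Mag stood at -1.65, while Siglece, an inhibitory receptor of neutrophils and monocytes, stood at 0.14 and Siglech, of plasmacytoid dendritic cells, at 0.30. Among granule matrix and membrane genes, Serpinb1a, a protease inhibitor of myeloid cells, stood at -2.90 and Srgn, the proteoglycan that packs granule proteins, at -1.88. Cd63, a membrane protein of granules and lysosomes, stood at 1.16 as scaled and 0.14 without scaling, with intensities of 187528 (control) and 206358 (NYT).

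**Figure D3:**
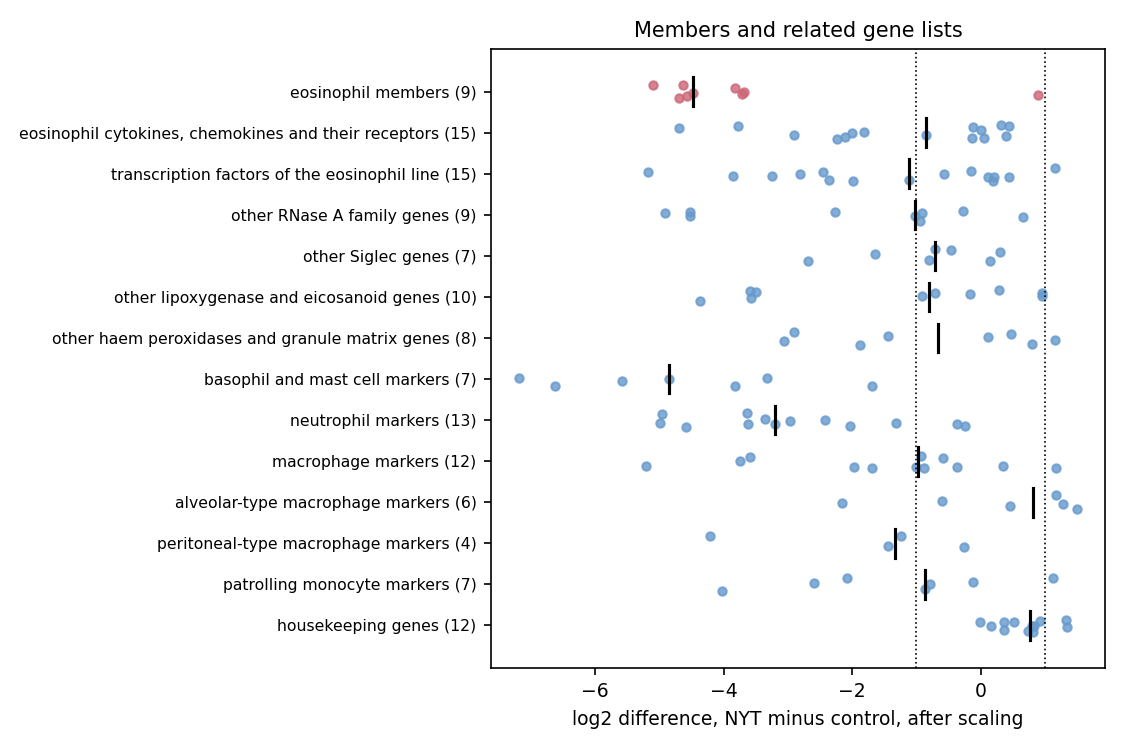
Log2 differences (NYT minus control, after scaling) of genes measured on both arrays, 1 point per gene, with the list's number of measured genes in brackets and its median as a black bar; vertical jitter has no meaning. The eosinophil members have a median of -4.48 and the basophil and mast cell markers -4.86, while the housekeeping genes lie at 0.77.

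Most markers of basophils, mast cells and neutrophils were also lower with NYT, and their part in the result was not tested. Of 12 basophil and mast cell markers, all 7 measured were lower by 2-fold or more, 4 gave a control signal alone with a bound of that size, and Tpsab1 was detected on neither array. Their median was -4.86, led by the proteases Cpa3 (-7.18) and Mcpt8 (-6.63), and their summed intensities were 74481 (control) and 1049 (NYT). Fcer1a and Cd200r3 were not well above background on the NYT array. Over the measured eosinophil members the sums were 196393 and 6093. Of 13 neutrophil markers, 11 were at least 2-fold lower, with a median of -3.20 and sums of 1174514 and 236961. Cxcr2 (-4.99) and Retnlg (-4.96) led them, while Elane stood at -0.37 and S100a9 at -0.25.

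The macrophage and monocyte lists bear on Siglecf, Alox15 and Ear2, which such cells can also express. Of 12 macrophage markers, 6 were at least 2-fold lower and 1, Cd68, at least 2-fold higher, with a median of -0.97 and summed intensities of 822732 and 338087. The complement genes C1qa (-5.21), C1qb (-3.74) and C1qc (-3.58) were lowest, and the mannose receptor Mrc1 stood at -1.97. Cd68 stood at 1.18, but was under 2-fold after quantile normalization (0.62) and loess (0.53) and without scaling (0.16). Without scaling 10 of the 12 were at least 2-fold lower and none higher, with a median of -1.99. Among markers of alveolar-type macrophages, which carry Siglecf, 3 of 6 were at least 2-fold higher (Fabp4 at 1.50, Atp6v0d2 at 1.28 and Fabp5 at 1.17) and 1 lower (Chil3 at -2.16). Their sums were 502176 and 400821, and Krt19 and Cidec were well above background on neither array. The other probe of Atp6v0d2 stood at 0.35. The alveolar-type markers at least 2-fold higher numbered 2 with the mean over probes, 1 after quantile normalization and 0 after loess. Without scaling their median fell from 0.81 to -0.21 and none was at least 2-fold higher. Of peritoneal-type macrophage markers, 3 of 4 measured were at least 2-fold lower, with F5 at -4.22, and sums of 14319 and 1910. Gata6, which defines those cells, was well above background on neither array, and Timd4 and Vsig4 were detected on the control array alone. Of patrolling monocyte markers, 3 of 7 were lower by that size, with Cx3cr1 at -4.02 and sums of 23696 and 3517, and Ace stood at 1.12 (0.11 without scaling). The median of housekeeping genes was 0.77, or -0.25 without scaling.

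The 2-fold calls of the members held under each processing alternative that gave a value, while the larger size classes did not. Siglecf, at least 8-fold lower as scaled, was under 8-fold with normexp, and Prg2, under 16-fold as scaled, passed it after quantile normalization (-4.02) and loess (-4.12), with spike-in scaling (-4.89) and unscaled (-4.73). The 8 lower members lay between -6.28 and -2.96 over those alternatives, and Il5ra changed sign. Normexp background correction brought Epx to -4.04 and Siglecf to -2.96, and spike-in scaling lowered Epx to -6.28.

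**Figure D4:**
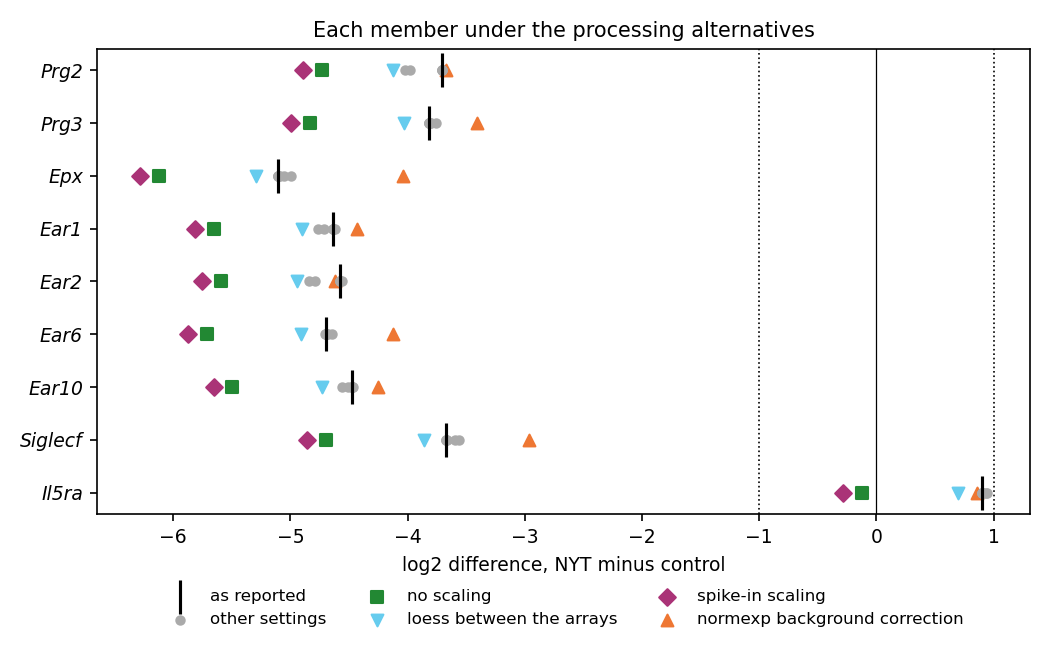
Log2 difference (NYT minus control) of the 9 measured eosinophil genes as reported (black bars) and under the processing alternatives (coloured symbols and grey points). Dotted lines mark 2-fold; the 8 lower members stay left of -2.96, and Il5ra crosses 0 without scaling (-0.12) and with spike-in scaling (-0.28).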

How the data were processed

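Gene expression was measured on 2 Agilent one-colour arrays, 1 per group, grouped by the treatment in the labels. The deposited scanner files hold a processed intensity for each spot, detrended within the array but not scaled between arrays. The file headers name Feature Extraction 10.7.1.1, and the submitters' processing notes 9.5.1.1. The deposited files also hold spot flags for outliers and detection. A value table deposited by the authors, tried as an alternative, held linear, uncentred intensity values whose sorted columns were equal at 39073 of 39429 probes (within 1e-06), as quantile normalization gives. The labels and the design text name different RNA kits.

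Spots other than outliers were averaged per probe as log2 values, less the 75th percentile of the array. A gene's value is that of its brightest probe detected on both arrays (well above background in over 50% of spots). A gene detected on 1 array was given a bound: its signal against the higher of the other array's lowest detected signal and its own. Names came through RefSeq tables of GRCm38.p6 (26761 probes by accession, 3814 by symbol, 639 by synonym, 8215 left as in the files). Python 3.11.15, limma 3.58.1 (normexp) and Biopython 1.88 (alignment) were used. The calling step was tested on data simulated from the control array with random noise, a uniform shift and planted changes. The simulation held no difference between cultures or hybridisations and none that varied with intensity. It therefore does not bear on the precision of the values given here.

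The members and gene lists were chosen with earlier results of these data known. All members were named, and from each other list up to 4 of the genes with the largest differences and up to 3 with the largest bounds. Others were added after their values were seen. Alternatives were other scalings, background correction, filters, probe rules and a 3-fold threshold. With 1 array per group no test was made, and the number of arrays limits the precision. The median SD between spots of probes printed several times was 0.054 for a log2 difference (228 probes). Protein sequences were not used here.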

Additional observations from a re-analysis of the deposited data

How the results depend on the processing

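No paired analysis was possible because neither group holds a replicate, and for the same reason none was left out. The members' median of -4.48 was -5.50 without scaling, -5.66 with spike-in scaling, -4.73 after loess and -4.04 with normexp background correction. The 7 other settings gave -4.56 to -4.46. Members at least 2-fold lower numbered 7 of 8 with the array's names alone, 9 of 10 with no filter on dim probes or the other detection flag, and 8 of 9 elsewhere, the 3-fold threshold included. Il5ra turned to -0.12 without scaling and -0.28 with spike-in scaling. Over all genes, those at least 2-fold lower numbered 6190 without scaling, 7485 with spike-in scaling, 3414 with no filter on dim probes and 1167 at 3-fold. Those higher numbered 211, 166, 4750 and 507 under the same settings, 935 after loess and 3572 with the other detection flag. Leaving out the scaling lowered every difference by the same 1.02, and spike-in scaling also moved all of them by a single amount. Another filter or threshold changed which genes were counted, and otherwise the cause was not tested. Signal over background limits Alox15 and the second Siglecf probe, which were not well above background on the NYT array.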

Other observations

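Chosen after their values were seen, the protein-coding genes within 3 places of a member in the RefSeq order of GRCm38.p6 were read for the same difference. Of 24 such genes measured on both arrays and not members, 4 were at least 2-fold lower, 1 was at least 2-fold higher and 19 were under 2-fold. Among all measured genes 11.0% were lower and 11.2% higher by that size. The median of the 24 was 0.25, near the 0.29 of all measured genes. The lower neighbours were Alox12 (-4.38), Mpo (-3.07), Slc43a1 (-2.07) and Ndrg2 (-1.66), and the higher neighbour was Lim2 (1.41). Slc43a3, next to Prg2, stood at 0.71, and P2rx3, next to Prg3, at 0.31. Mks1, next to Epx, stood at 0.22. The gene on the other side of Epx, Olfr462, was well above background on neither array.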
